A study of Mus musculus with 18 samples.

Results

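The genes described here are 10 genes of the CXCL12-abundant reticular (CAR) cell niche of the bone marrow: Cxcl12, Kitl, Angpt1, Vcam1, Lepr, Pdgfra, Pdgfrb, Foxc1, Ebf3 and Nes. The list names known niche genes and uses no cut on their values, but it was drawn up with earlier results of these data known. Each symbol was read from its brightest probe set, and 9 of the 10 genes had a named probe set, each with 1. Pdgfra was not analysed here. The 9 genes stand among 19505 genes that were fitted together.

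CAR cells are stromal cells that wrap the sinusoids of the marrow and largely overlap with the cells that carry the leptin receptor. They secrete the chemokine CXCL12, which holds stem cells and B-cell precursors in the marrow through the receptor CXCR4, and stem cell factor (KITL), which maintains stem cells through the receptor KIT. The transcription factors FOXC1 and EBF3 are needed for these cells to keep their niche function and not to turn into fat or bone cells.

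RNA came from marrow cells labelled as mesenchymal, with 1 array per mouse and 18 mice. At 12 weeks of age there were 5 BALB/c controls and 5 NeuT mice, and at 24 weeks there were 4 of each. NeuT mice carry an activated rat Erbb2 (neu) transgene, which in the BALB-neuT line is driven by the promoter of the mouse mammary tumour virus. The labels call the younger NeuT mice early and the older ones late in breast tumorigenesis. Tumours are stated in the sample sources for the younger as well as the older NeuT group. Effects of the transgene and of the tumour cannot be told apart, nor can age and any processing batch. The cells, from femurs and tibias, had been depleted with magnetic beads of CD45, Ter119, CD11b, CD11c, CD3, Gr1 and B220 positive cells and were characterised by flow cytometry as CD45-, CD29+ and CD44+. The comparisons ask whether the niche genes differ between NeuT and BALB/c mice at each age, and between ages.

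All values are log2 signals as normalised by the authors with RMA. Medians over all genes lay between 8.43 and 8.56 in the 18 arrays. BALB/c 24-week replicate 1 stood apart at the bright end, with a 99th percentile of 12.61 against 12.77 to 12.93 elsewhere. NeuT 12-week replicate 4, NeuT 24-week replicate 1 and BALB/c 24-week replicate 3 correlated least with the remaining arrays (median r 0.987 to 0.991, against a highest value of 0.995). Without these 3 arrays the genes called at 24 weeks fell from 274 to 15, and without NeuT 24-week replicate 1 alone to 8, so single 24-week calls depend on them. For the called genes named here, except C1qc, at least 1 fit that leaves out 1 array is given beside the call. The fit without the 3 arrays is given for some of them.

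None of the 9 niche genes exceeded the 95th percentile of the negative control probe sets (10.46 over all arrays) in any of the 18 mice. The median over all genes, 8.43 to 8.56, lay under it in every array as well, so this does not set the niche genes apart. Vcam1 lay above 88.8 to 94.7% of the negative controls, and Cxcl12 lay above 81.3 to 86.9% of them. Angpt1 lay above 64.2 to 79.4%, Pdgfrb above 63.2 to 81.5%, Kitl above 55.6 to 67.4% and Nes above 56.3 to 64.7%. Lepr (5.20 to 5.80) and Foxc1 (6.60 to 7.04) were under the negative control median of 7.35 in all 18 arrays, and Ebf3 (7.19 to 7.95) was under it in 4. For these 3 genes a difference compares dim signals, and what it means for the amount of transcript is not known. Kitl (7.56 to 8.25) and Nes (7.76 to 8.01) lay not far above the negative control median, and the same caution goes for them. The table used here gives no detection calls, so no gene is called absent. In bulk RNA fewer cells of a type and less RNA per cell cannot be told apart. Neutrophil, B-cell and erythroid markers were brighter than the niche genes, although the cells had been depleted. Group means of the list signals were 11.60 to 12.34 for 13 neutrophil, 10.28 to 11.09 for 11 B-cell and 10.71 to 11.20 for 6 erythroid markers. For the 9 niche genes they were 7.86 to 8.09, and for 12 resident macrophage markers 7.58 to 7.66. The share of each cell type was not measured, and the brightness of probe sets of different genes does not give it.

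Vcam1 and Angpt1 were the niche genes that were higher in NeuT mice: Vcam1 at 24 weeks, and both when the effects at 12 and 24 weeks were averaged. Kitl was lower in the older than in the younger BALB/c mice. No other member passed an adjusted p of 0.05 in the 6 comparisons made. Cxcl12, the gene that names these cells, ran from 9.04 to 9.45 over all 18 mice and passed in none of them.

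**Figure D1:**
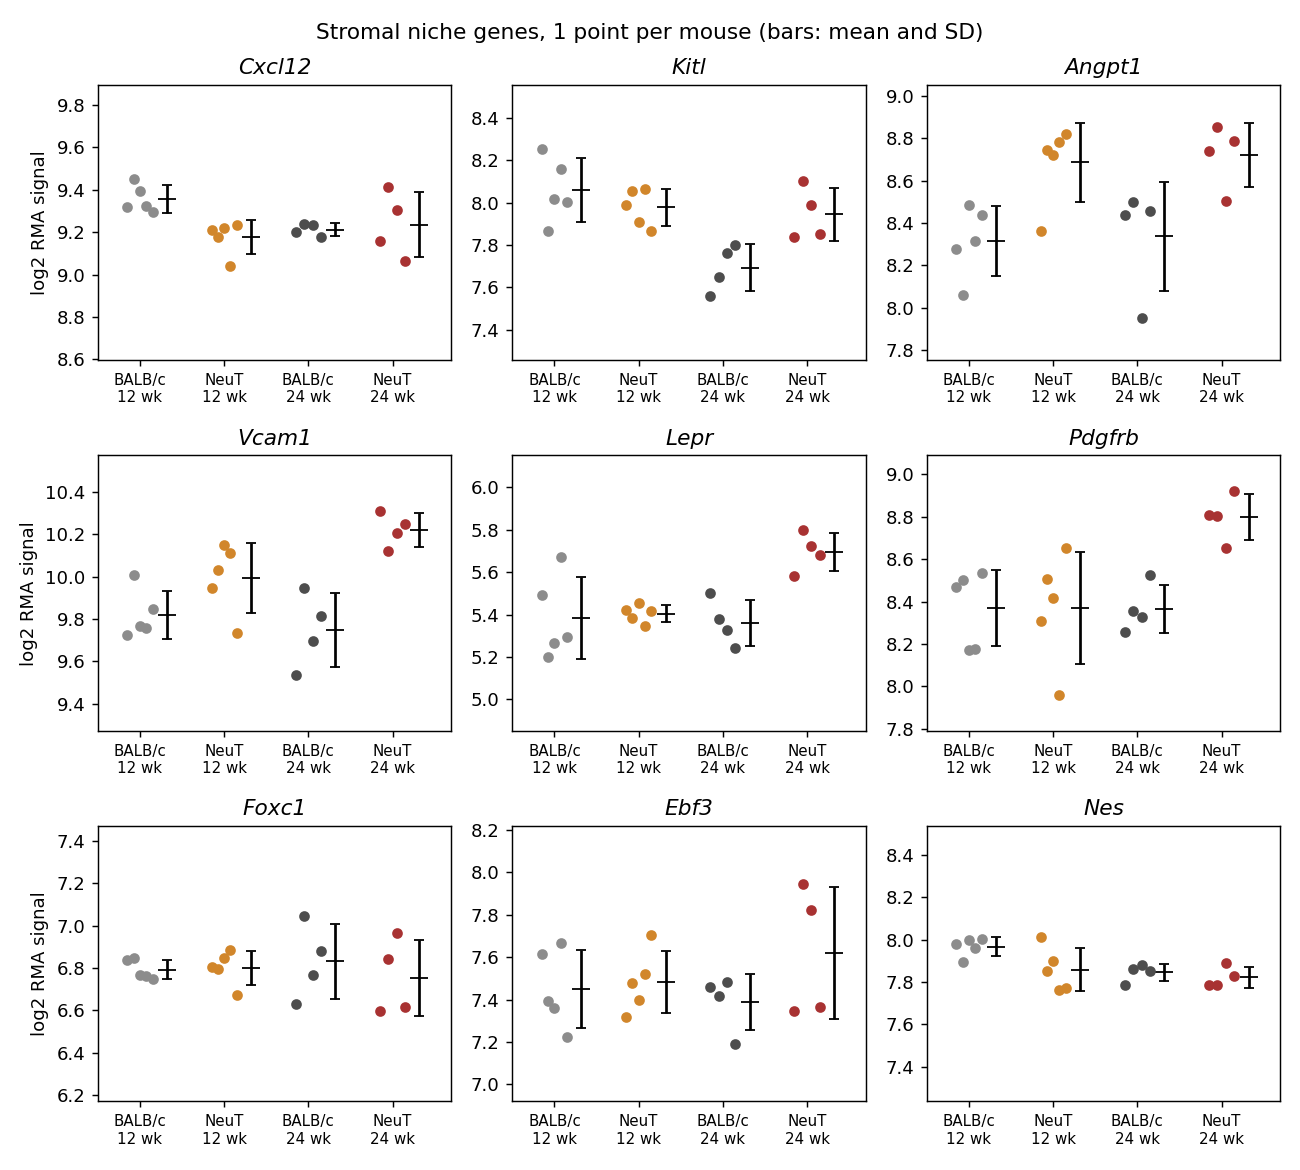
Log2 RMA signal (vertical axis, the same span in every panel) of the 9 niche genes in each of 18 mice, by mouse model and age (horizontal axis); points are mice, and the bar beside them is the group mean with its SD. The 4 NeuT mice of 24 weeks lie above all 4 BALB/c mice of that age for Kitl, Angpt1, Vcam1, Lepr and Pdgfrb.

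Vcam1 (Entrez gene 22329) encodes an adhesion molecule that binds the integrin VLA-4 on stem cells and lymphoid precursors. At 24 weeks its log2 signals were 9.53, 9.95, 9.70 and 9.81 in BALB/c mice and 10.31, 10.12, 10.21 and 10.25 in NeuT mice. Every NeuT mouse lay above every control, with 0.17 between the ranges. The mean rose from 9.75 ± 0.18 (SD, n = 4) to 10.22 ± 0.079 (SD, n = 4), a log2 difference of 0.47 ± 0.097 (SE), or 1.39-fold (limma, Benjamini-Hochberg adjusted p = 0.0233). At 12 weeks the signals were 9.72, 10.01, 9.77, 9.76 and 9.85 in BALB/c mice and 9.95, 10.03, 10.15, 10.11 and 9.74 in NeuT mice. Here 3 NeuT mice lay above every control and the other two among them, and the log2 difference of 0.17 ± 0.087 did not pass (limma adjusted p = 0.253). Averaged over both ages Vcam1 rose by 0.32 ± 0.065 on the log2 scale, or 1.25-fold (limma adjusted p = 0.00326). The average passed in all 18 fits that left out 1 array, and the 24-week call in 4 of 8. That call ended without BALB/c 24-week replicate 1 (adjusted p = 0.0775) or replicate 3 (0.0588) and without NeuT 24-week replicate 1 (0.135) or replicate 4 (0.126), with log2 differences of 0.40 to 0.54 over all 8 fits. Without the 3 arrays of lowest correlation the 24-week value was 0.43 (adjusted p = 0.176) and the average 0.29 (adjusted p = 0.0263).

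Angpt1 (Entrez gene 11600) encodes angiopoietin 1, the ligand of the receptor TEK (TIE2) on endothelium and stem cells. At 12 weeks its log2 signals were 8.28, 8.06, 8.48, 8.32 and 8.44 in BALB/c mice and 8.36, 8.74, 8.72, 8.78 and 8.82 in NeuT mice. All NeuT mice but replicate 1 lay above every control. The log2 difference was 0.37 ± 0.11 (SE; limma adjusted p = 0.0562), and without that NeuT mouse it was 0.45 (adjusted p = 0.027). At 24 weeks the signals were 8.44, 8.50, 7.95 and 8.46 in BALB/c mice and 8.74, 8.85, 8.50 and 8.79 in NeuT mice. The groups were apart by only 0.0059, between NeuT replicate 3 and the highest control, and BALB/c replicate 3 lay far under the other controls. The log2 difference of 0.38 ± 0.12 did not pass (limma adjusted p = 0.128). Averaged over both ages Angpt1 rose by 0.38 ± 0.082 on the log2 scale, or 1.30-fold (limma adjusted p = 0.00546). The average passed in all 18 fits that left out 1 array, with values of 0.31 to 0.42, and also without the 3 arrays of lowest correlation (0.30, adjusted p = 0.032). The effects at both ages differed by 0.013 (95% interval -0.33 to 0.35).

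Kitl (Entrez gene 17311) encodes stem cell factor, made in the marrow by LEPR+ stromal cells and by endothelium. In BALB/c mice its log2 signals were 8.25, 7.86, 8.02, 8.16 and 8.0 at 12 weeks and 7.56, 7.65, 7.76 and 7.80 at 24 weeks. Every older control lay under every younger one. The mean fell from 8.06 ± 0.15 (SD, n = 5) to 7.69 ± 0.11 (SD, n = 4), a log2 difference of -0.37 ± 0.085 (SE; limma adjusted p = 0.0482). In NeuT mice the signals were 7.99, 8.06, 7.91, 8.06 and 7.87 at 12 weeks and 7.84, 8.10, 7.99 and 7.85 at 24 weeks. These groups overlapped, with a log2 difference of -0.033 (95% interval -0.21 to 0.14; limma adjusted p = 0.924). NeuT minus BALB/c was -0.083 ± 0.080 at 12 weeks (limma adjusted p = 0.580) and 0.25 ± 0.090 at 24 weeks, where the groups did not overlap (limma adjusted p = 0.191). The change of this effect with age, 0.33 (95% interval 0.085 to 0.58), did not pass (limma adjusted p = 0.711). The fall in BALB/c mice passed in 2 of 9 fits that left out 1 array, those without BALB/c 24-week replicate 3 (adjusted p = 0.0287) or replicate 4 (0.0464). It ended without any 1 of the 5 younger controls and without BALB/c 24-week replicate 1 or 2 (adjusted p from 0.0512 to 0.161), with log2 differences of -0.41 to -0.32 over all 9 fits. It was -0.39 without the 3 arrays of lowest correlation (adjusted p = 0.0201). The mean signal of 12 endothelial markers ran from 8.09 to 8.29 in the younger and from 7.96 to 8.14 in the older controls, and its part in the fall was not tested.

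Cxcl12 (Entrez gene 20315) had log2 signals of 9.32, 9.45, 9.39, 9.32 and 9.29 in the 12-week BALB/c mice and 9.21, 9.18, 9.22, 9.04 and 9.24 in the 12-week NeuT mice. Every NeuT mouse lay under every control, with 0.059 between the ranges. The log2 difference of -0.18 ± 0.070 (SE) did not pass over all genes (limma adjusted p = 0.139). At 24 weeks the signals were 9.20, 9.24, 9.23 and 9.18 in BALB/c mice and 9.16, 9.41, 9.31 and 9.06 in NeuT mice. The controls lay inside the wider NeuT range, and the difference was 0.023 (95% interval -0.14 to 0.18; limma adjusted p = 0.928). The older controls also lay under the younger ones without overlap, with a log2 difference of -0.14 ± 0.074 (limma adjusted p = 0.361).

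Lepr (Entrez gene 16847) and Pdgfrb (Entrez gene 18596) encode the receptors for leptin and for platelet-derived growth factor by which marrow stromal cells are recognised. Both had their highest group mean in the 24-week NeuT mice. Pdgfrb read 8.81, 8.81, 8.65 and 8.92 there, against 8.26, 8.35, 8.33 and 8.53 in the 24-week controls. At 12 weeks it read 8.47, 8.50, 8.17, 8.18 and 8.53 in BALB/c mice and 8.31, 8.51, 8.42, 7.96 and 8.65 in NeuT mice. The groups were apart at 24 weeks and overlapped at 12 weeks. The log2 difference for Pdgfrb was 0.43 ± 0.12 (SE) at 24 weeks (limma adjusted p = 0.0726) and -0.00068 (95% interval -0.22 to 0.22) at 12 weeks. Lepr read 5.50, 5.38, 5.32 and 5.24 in the 24-week controls and 5.58, 5.80, 5.72 and 5.68 in the 24-week NeuT mice, again without overlap. The Lepr difference was 0.33 ± 0.091 at 24 weeks (limma adjusted p = 0.0709) and 0.020 (95% interval -0.15 to 0.19) at 12 weeks. The change of the NeuT effect with age was 0.43 for Pdgfrb (95% interval 0.10 to 0.76; limma adjusted p = 0.718) and 0.31 for Lepr (95% interval 0.062 to 0.57; limma adjusted p = 0.724). None of these receptor differences passed over all genes.

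Foxc1 (Entrez gene 17300), Ebf3 (Entrez gene 13593) and Nes (Entrez gene 18008), which encodes nestin, a filament protein of perivascular stromal cells, had overlapping groups in both comparisons of NeuT with BALB/c. The log2 difference for Foxc1 was 0.0096 (95% interval -0.16 to 0.18) at 12 weeks and -0.077 (95% interval -0.27 to 0.11) at 24 weeks. For Ebf3 it was 0.031 (95% interval -0.20 to 0.26) and 0.23 (95% interval -0.029 to 0.49). The 24-week NeuT mice spread widely in Ebf3, from 7.34 and 7.37 in replicates 1 and 4 to 7.95 and 7.82 in replicates 2 and 3. Nes had the smallest range of the 9 genes, 0.25 over all mice, and differences of -0.11 (95% interval -0.24 to 0.021) and -0.023 (95% interval -0.17 to 0.12). Nes was lower in the older than in the younger controls without overlap, with a log2 difference of -0.12 ± 0.066 that did not pass (limma adjusted p = 0.391).

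Ordered by group mean, the 24-week NeuT mice were highest for Angpt1, Vcam1, Lepr, Pdgfrb and Ebf3, and the 12-week controls for Cxcl12, Kitl and Nes. Of neighbouring groups in these orders, those with separate ranges were 24-week BALB/c and 24-week NeuT mice at the low end of Kitl, and the 24-week NeuT mice and the group next to them for Lepr and Pdgfrb. Steps wider than the larger SD, with overlap, were those from 24-week BALB/c to 12-week NeuT mice in Angpt1, the steps from 12-week BALB/c to 12-week NeuT and on to 24-week NeuT mice in Vcam1, and the highest step in Nes. The neighbouring groups of Cxcl12, Foxc1 and Ebf3 did not differ beyond their spread.

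**Figure D2:**
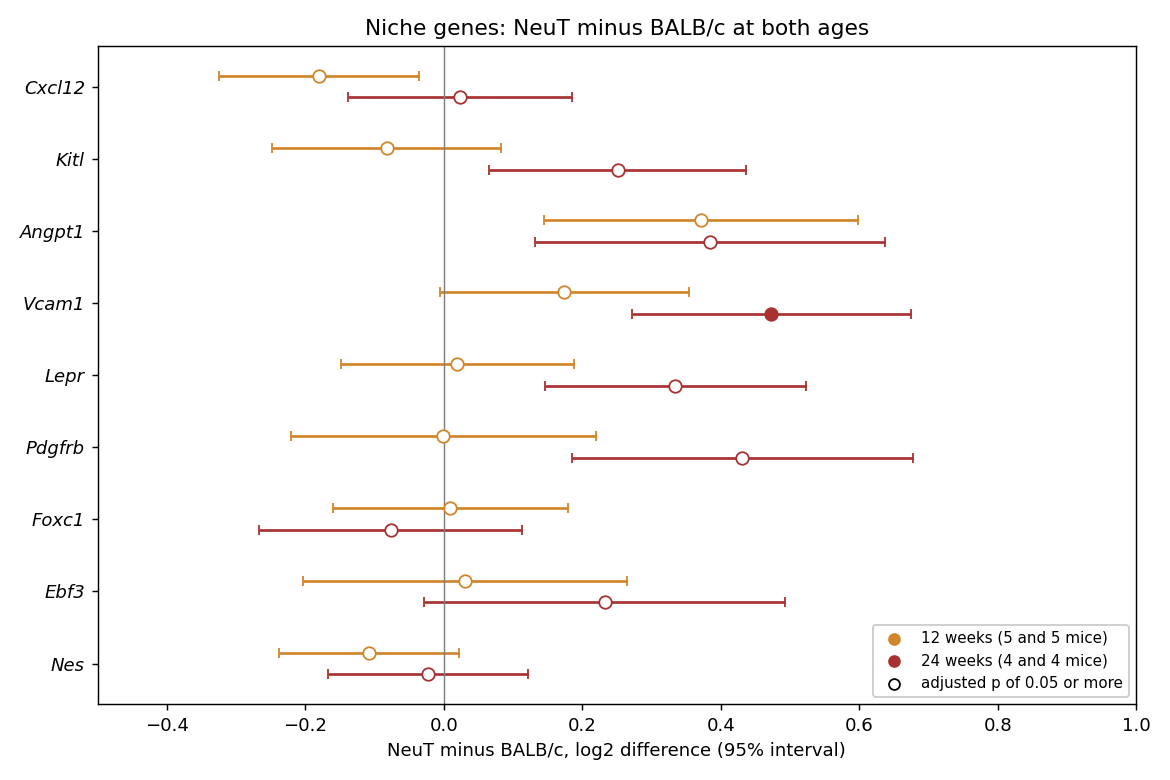
Log2 difference NeuT minus BALB/c (horizontal axis) with its 95% interval from limma for the 9 niche genes (vertical axis), at 12 weeks (orange, 5 and 5 mice) and 24 weeks (red, 4 and 4 mice); filled points passed an adjusted p of 0.05 over all genes. The filled point is Vcam1 at 24 weeks, 0.47, and Angpt1 has nearly the same value at both ages, 0.37 and 0.38.

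At 12 weeks 0 of the 9 members passed by limma, against 3.84% of all genes. The unmoderated test with unequal variances called 0 members too, but only 9 of all 19505 genes, so its 0 says little about the members. With the dim-gene filter, trended and robust moderation, array weights or only the groups compared, 1 member passed, Angpt1. At an unadjusted p under 0.05 there were 2 members, Angpt1 and Cxcl12, against 21% of all genes. The single member with separate groups, Cxcl12, was lower in NeuT mice, as were 2.82% of all genes by that measure (3.34 to 5.42% with 1 array left out, the highest without NeuT 12-week replicate 5). The members' median log2 difference was 0.0096 and that of all genes -0.025. At 24 weeks 1 of 9 passed, against 1.4% of all genes, and 5 of 9 had an unadjusted p under 0.05, against 13.2%. The members' median was 0.25 and that of all genes -0.00014. In 5 of 9 members all 24-week NeuT mice lay above all controls, against 4.95% of all genes. After a further quantile normalisation these were 4 of 9 against 3.44%, with Angpt1 lost. With 1 array left out they were 5 of 9 throughout, against 5.59% (without BALB/c 24-week replicate 1) to 8.61% (without NeuT 24-week replicate 2), and without the 3 arrays of lowest correlation 5 of 9 against 9.68%. In the average over both ages 2 of 9 passed, against 8.56% of all genes, and 4 of 9 had an unadjusted p under 0.05 (Lepr and Pdgfrb besides), against 25%.

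For the change of the NeuT effect with age 0 of 9 passed by limma, against 0.0103% of all genes. At an unadjusted p under 0.05 there were 4 members (Kitl, Vcam1, Lepr and Pdgfrb, all with a more positive effect at 24 weeks), against 6.5% of all genes. The members were not alone in this. It was found for 5 of 12 endothelial markers, 4 of 6 megakaryocyte markers and 8 of 32 other CAR and marrow stromal genes. Of 13 neutrophil markers it was found for 0. The change was above 0 in 8 of 9 members, 11 of 12 endothelial markers and 27 of 32 stromal genes, against 55.6% of all genes. Between ages in BALB/c mice 1 of 9 passed, against 0.579%, and this member, Kitl, was also the single one with an unadjusted p under 0.05, against 15.3%. In 3 of 9 all older controls lay under all younger ones (Cxcl12, Kitl and Nes), against 3.57%. After a further quantile normalisation these were 2 of 9 against 3.1%, with Nes lost. With 1 array left out they were 3 of 9 against 3.96 to 5.47%, except without BALB/c 24-week replicate 3, where 10.8% of all genes were separate in this direction. Between ages in NeuT mice 0 of 9 passed by limma, against 0.0359%, and 3 had an unadjusted p under 0.05 (Vcam1, Lepr and Pdgfrb, all higher at 24 weeks), against 12.6%. Lepr and Pdgfrb were higher in the older NeuT mice without overlap, against 2.96% of all genes, though the ranges of Pdgfrb were apart by only 0.00042. That share was 3.57 to 5.43% with 1 array left out, the highest without NeuT 24-week replicate 2. Their log2 differences were 0.29 ± 0.086 and 0.43 ± 0.11 (limma adjusted p = 0.152 and 0.121).

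Of 13 receptors, ligands and partners of the niche proteins, 0 passed by limma at 12 weeks and 0 at 24 weeks, where 3 and 4 had an unadjusted p under 0.05, against 21% and 13.2% of all genes. In the average over both ages 1 rose, 2 fell and 10 did not pass, against 8.56% of all genes called. Kit, the receptor of stem cell factor, rose by 0.20 ± 0.055 (SE) on the log2 scale (limma adjusted p = 0.0297). Its mean at 12 weeks was 12.75 in the controls and 12.92 in the NeuT mice, and at 24 weeks 12.75 and 12.97. Pdgfa, a ligand of platelet-derived growth factor receptors, fell by 0.22 (SE 0.056, limma adjusted p = 0.0175), and Ackr3, the scavenger receptor of CXCL12, fell by 0.18 (SE 0.057, limma adjusted p = 0.0497). The call of Pdgfa held in 18 of 18 fits that left out 1 array, that of Kit in 10 and that of Ackr3 in 5. For Kit it ended without BALB/c 12-week replicate 3 or 4, NeuT 12-week replicate 2 or 3, BALB/c 24-week replicate 1 or 3 and NeuT 24-week replicate 1 or 4. For Ackr3 it held only without BALB/c 12-week replicate 3, NeuT 12-week replicate 1 or 5 and BALB/c 24-week replicate 1 or 4. Without the 3 arrays of lowest correlation none of these 3 genes passed (limma adjusted p = 0.0762 for Pdgfa, 0.140 for Kit and 0.123 for Ackr3). Cxcr4, the signalling receptor of CXCL12, had an average log2 difference of -0.13 (limma adjusted p = 0.245). Tek, the receptor of angiopoietin 1, had 0.090, the related receptor gene Tie1 0.14 and the second ligand gene Angpt2 -0.042 (limma adjusted p = 0.468, 0.193 and 0.802). The integrin genes Itga4, Itgb1 and Itgb7, whose products pair to bind VCAM1, had -0.14, 0.012 and 0.0031 (limma adjusted p = 0.234, 0.923 and 0.980). Pdgfb, Pdgfc and Pdgfd had -0.053, -0.017 and 0.035 (limma adjusted p = 0.586, 0.906 and 0.785). For 2 of the 13 genes, Tie1 and Pdgfd, the change of the NeuT effect with age had an unadjusted p under 0.05, against 6.5% of all genes. Tie1 had -0.090 at 12 and 0.37 at 24 weeks (limma adjusted p = 0.585 and 0.0663). Pdgfd had -0.16 and 0.23 (limma adjusted p = 0.325 and 0.333). Neither change passed (limma adjusted p = 0.598 and 0.711).

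Of 32 other genes known from CAR and marrow stromal cells, 2 rose at 24 weeks, Igfbp4 and Igfbp5, which encode binding proteins of insulin-like growth factors, and 30 did not pass, against 1.4% of all genes called. At 24 weeks Igfbp5 averaged 8.82 ± 0.14 (SD, n = 4) in the controls and 9.51 ± 0.40 (SD, n = 4) in the NeuT mice, a log2 difference of 0.69 ± 0.17 (SE; limma adjusted p = 0.0492). Igfbp4 rose by 0.35 ± 0.088 (limma adjusted p = 0.0487). With 1 array left out the call of Igfbp4 held in 2 of 8 fits, without NeuT 24-week replicate 2 or 3, and that of Igfbp5 in 1 of 8, without NeuT 24-week replicate 4. Without NeuT 24-week replicate 1 the limma adjusted p was 0.285 for Igfbp4 and 0.251 for Igfbp5, and without the 3 arrays of lowest correlation 0.301 and 0.395. The median of these 32 genes at 24 weeks was 0.055, beside 0.25 for the 9 niche genes, and 20 of 32 differences were above 0. At 12 weeks 0 of 32 passed by limma, against 3.84% of all genes, 6 had an unadjusted p under 0.05, against 21%, and the median was -0.071. Averaged over both ages Igfbp4 and Igfbp5 rose by 0.30 and 0.45 (limma adjusted p = 0.00282 and 0.0195), and Ebf1 fell by 0.64 (SE 0.16, limma adjusted p = 0.0124). These 3 calls held in all 18 fits that left out 1 array, except Igfbp5 without NeuT 24-week replicate 1 (limma adjusted p = 0.0565). Without the 3 arrays of lowest correlation Igfbp4 passed (limma adjusted p = 0.0154) and Igfbp5 and Ebf1 did not (0.120 and 0.069). Ebf1 encodes a transcription factor of CAR cells and of B cells, and 8 of 11 B-cell markers, Ebf1 among them, fell in the same comparison. Of 15 perivascular and general mesenchymal genes 0 passed by limma at 12 weeks (2 at an unadjusted p under 0.05, against 21% of all genes, median -0.038) and 0 at 24 weeks (4 at an unadjusted p under 0.05, against 13.2%, median -0.056).

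Of 9 genes for proteases that act on niche factors 1 rose at each age, against 3.84% of all genes called at 12 weeks and 1.4% at 24 weeks. This was Mmp9, which encodes a gelatinase that releases soluble stem cell factor. Its log2 difference was 1.02 ± 0.24 (SE) at 12 weeks and 1.07 ± 0.26 at 24 weeks (limma adjusted p = 0.0183 and 0.0430). The 12-week call ended without BALB/c 12-week replicate 1 or NeuT 12-week replicate 4, and the 24-week call held only without BALB/c 24-week replicate 4 or NeuT 24-week replicate 2. Without the 3 arrays of lowest correlation Mmp9 passed at 12 weeks (limma adjusted p = 0.0444) and not at 24 weeks (0.205). Averaged over both ages Ctsg and Prtn3, serine protease genes of neutrophils, rose as well, by 0.31 ± 0.063 and 0.27 ± 0.060 (limma adjusted p = 0.00354 and 0.00716), and 6 of 9 did not pass. The average passed for Mmp9, Ctsg and Prtn3 in all 18 fits that left out 1 array and without the 3 arrays. Ctsg and Prtn3 also belong to the neutrophil markers, which rose in 11 of 13 genes. The part of neutrophils in the rise of Mmp9 was not tested.

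Markers of other cells moved with the mouse model, and their part in the niche gene differences was not tested. Averaged over both ages 11 of 13 neutrophil, 7 of 9 monocyte and 5 of 9 stem and progenitor markers rose, against 8.56% of all genes called, as did 7 of 12 immediate-early genes, a class that cell isolation can induce. These counts were 11, 7, 3 and 2 without the 3 arrays of lowest correlation. Of the 5 stem and progenitor markers 2 still passed without NeuT 12-week replicate 3, BALB/c 24-week replicate 1 or NeuT 24-week replicate 1. Of the 7 immediate-early genes 4 still passed without BALB/c 12-week replicate 1, NeuT 12-week replicate 3, BALB/c 24-week replicate 3 or NeuT 24-week replicate 1. The mean of the immediate-early genes ran from 10.37 to 10.81 in controls and 10.80 to 11.08 in NeuT mice at 12 weeks, and from 10.65 to 10.82 and 10.86 to 10.92 at 24 weeks. The mean log2 signal of the stem and progenitor markers, from cells that can also make Angpt1, ran from 9.19 to 9.31 in controls and 9.26 to 9.50 in NeuT mice at 12 weeks, and from 8.99 to 9.51 and 9.39 to 9.57 at 24 weeks. Of 12 markers of resident macrophages, which also carry VCAM1, 1 rose at 24 weeks, against 1.4% of all genes called. This was the iron exporter gene Slc40a1 (0.50 ± 0.084, limma adjusted p = 0.00928, and 0.0707 without NeuT 24-week replicate 1). The mean of these markers ran from 7.49 to 7.71 in controls and 7.60 to 7.72 in NeuT mice at 24 weeks. At 12 weeks 1 fell, the complement gene C1qc, by 0.33 (SE 0.075, limma adjusted p = 0.0179), against 3.84% of all genes called. Averaged over both ages 1 of the 12 rose and 1 fell, with a median of -0.00036. The fall of C1qc was then 0.20 (SE 0.056, limma adjusted p = 0.0258). Of 12 markers of endothelium, which makes Kitl and can make Vcam1, 0 passed by limma at 24 weeks, with means of 7.96 to 8.14 in controls and 8.06 to 8.22 in NeuT mice. There 1 marker, Kdr, had an unadjusted p under 0.05, against 13.2% of all genes. Its log2 difference was 0.45 ± 0.15 (SE; limma adjusted p = 0.143). At 12 weeks 1 of these 12 passed, against 3.84% of all genes. The endothelial cadherin gene Cdh5 fell by 0.54 (SE 0.12, limma adjusted p = 0.0150), a call that ended without BALB/c 12-week replicate 2 or NeuT 12-week replicate 4. An unadjusted p under 0.05 was found for 6 of 12, Cdh5 among them and all lower in NeuT mice, against 21% of all genes. The median of the endothelial list at 12 weeks was -0.18, with means of 8.09 to 8.29 in controls and 7.97 to 8.04 in NeuT mice. The mean of the monocyte markers ran from 9.62 to 9.84 in controls and 10.10 to 10.46 in NeuT mice at 12 weeks, and from 9.87 to 10.07 and 10.03 to 10.60 at 24 weeks. With the means of the neutrophil and B-cell markers as covariates, which differ between the groups themselves, the 24-week log2 difference of Vcam1 was 0.29 (limma adjusted p = 0.851). The averages over both ages were then 0.16 for Vcam1 and 0.51 for Angpt1 (limma adjusted p = 0.767 and 0.759). With these covariates only 2 of all 19505 genes passed at 24 weeks and 2 in the average. The lost calls therefore say little about Vcam1 or Angpt1.

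**Figure D3:**
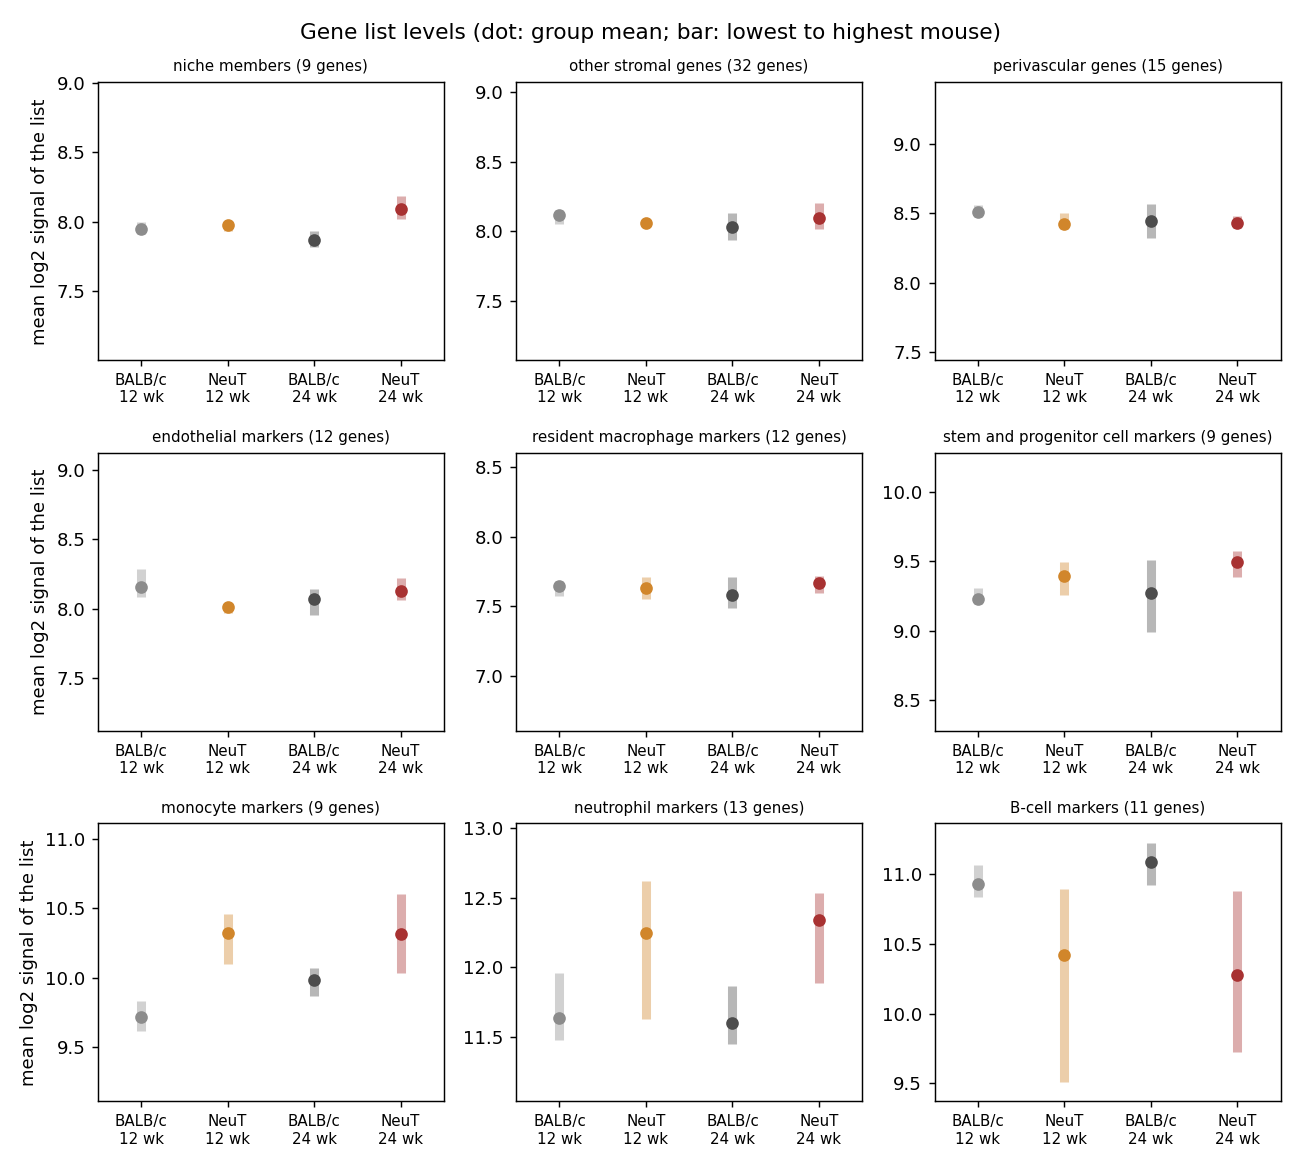
Mean log2 signal (vertical axis, the same span in every panel) of the niche genes and 8 other gene lists in the 4 groups of mice (horizontal axis); dots are group means and bars run from the lowest to the highest mouse. The niche genes have their highest mean, 8.09, in 24-week NeuT mice, while the neutrophil and monocyte means are higher and the B-cell means lower in NeuT mice at both ages.

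Among mice of the same group the niche genes were compared through the deviation of each mouse from its group mean. Of 36 pairs of genes, 18 had a positive and 18 a negative Pearson correlation over the 18 arrays, with a median of 0.0070. The highest was that of Lepr and Ebf3 (r = 0.63, Spearman rho = 0.62, permutation p = 0.00667 and 0.0122, adjusted over 36 pairs 0.240 and 0.287), and it was 0.65 without the 2 arrays farthest from the median in Lepr. The lowest was that of Vcam1 and Ebf3 (r = -0.497, rho = -0.56, permutation p = 0.0208 and 0.0159, adjusted 0.375 and 0.287), and it was -0.42 without 2 arrays. Neither of them passed after adjustment, nor did any other pair.

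**Figure D4:**
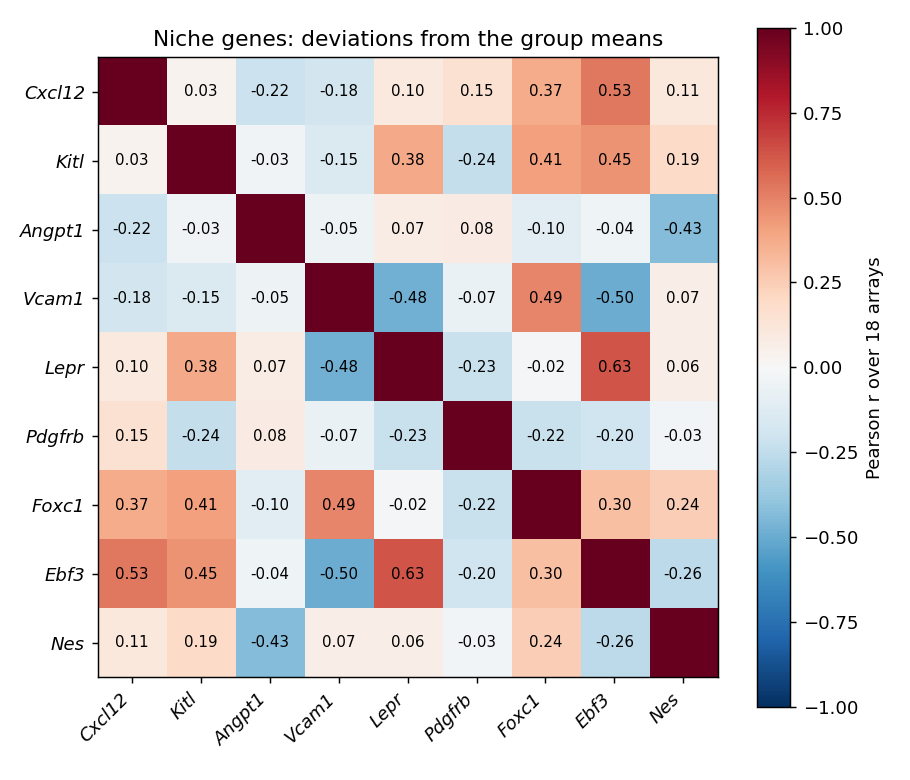
Pearson correlation over 18 arrays of the deviations from the group means for each pair of the 9 niche genes (both axes list the genes; red is positive, blue negative). Values run from -0.497 to 0.63, with 18 pairs above and 18 below 0.

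The same deviations were set against the mean of each of 16 gene lists, which gave 144 pairs, and in 2 pairs both coefficients passed after adjustment. Kitl followed the endothelial markers (r = 0.86, rho = 0.81, permutation p = 0.00014 and 0.00063, adjusted 0.0202 and 0.0454), with r = 0.81 without the 2 arrays farthest from the median. Ebf3 followed the megakaryocyte markers (r = 0.80, rho = 0.85, permutation p = 0.00054 and 0.00046, adjusted 0.0389 and 0.0454), with r = 0.80 without 2 arrays. Ebf3 and the monocyte markers had r = -0.82 and rho = -0.82 (permutation p = 0.0012 and 0.00116, adjusted 0.0576 and 0.0557), with r = -0.72 without 2 arrays. Vcam1 and the monocyte markers had r = 0.65 and rho = 0.68 (permutation p = 0.00164 and 0.00371, adjusted 0.0590 and 0.107), with r = 0.68 without 2 arrays. Cxcl12 and the erythroid markers had r = 0.82 and rho = 0.73 (permutation p = 0.00996 and 0.0177, adjusted 0.130 and 0.213), with r = 0.77 without 2 arrays. The arrays share 1 normalisation, so signals of different genes on an array are not independent.

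Over all genes the deviations most like those of Cxcl12 over the 18 arrays were those of Slc4a1, the anion exchanger gene of red cells (r = 0.89), the glycine transporter gene Slc6a9 (0.89) and Hectd4 (0.87). For Vcam1 they were those of the interferon-inducible gene Ifi204 (0.87), the kappa-casein gene Csn3 (0.86) and Tprn (0.86). For Kitl they were those of Ubqln1 (0.83), Olfr474 (0.83) and Ddx43 (0.82). These genes were picked as the highest of all and carry no test.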

How the data were processed

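The deposited table holds the authors' log2 signals, 1 for each probe set and mouse. The submitters' processing notes name RMA and the Transcriptome Analysis Console. Versions and build: not given in the sources used here; no coordinates are given. Of 29129 probe sets 19572 carried 1 gene symbol in the platform annotation; 2634 unnamed transcript clusters and 5222 negative, 1324 positive and 377 other controls stayed out of the fit. Of 55 genes with several probe sets the brightest was used. All 19505 genes entered 1 limma fit (version 3.58.1, R 4.3.3; a mean for each group; 14 residual and 8.68 prior degrees of freedom), two-sided, adjusted by Benjamini-Hochberg over all genes at a threshold of 0.05, with no filter. The script was tested on simulated data. The number of arrays limits the precision. Replicates are different mice, numbered in accession order; the labels of NeuT 12-week replicate 4 disagree on its mouse number.

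The members and lists were chosen with earlier results of these data known. The text names the members, the receptors and partners, up to 4 genes past the threshold per list and comparison, and the 3 genes most like Cxcl12, Kitl and Vcam1. Correlations were tested by 100000 permutations within groups. Alternatives were other normalisations, a filter on dim genes, the mean of probe sets, other moderation, array weights, fits on the groups compared, blood-cell covariates, unequal variances and leaving out arrays. The fit without 3 arrays, the counts of separate groups under other settings the fits without arrays for called list genes and the correlations with lists were added after seeing the data.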

Additional observations from a re-analysis of the deposited data

Results flagged for a closer look

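In 2 of 36 sets of values (9 genes in 4 groups) 1 mouse lay far from the others of its group, both times for Angpt1; chance alone gives about 1 in 20. NeuT 12-week replicate 1 read 8.36, with the nearest mouse of its group at 8.72. BALB/c 24-week replicate 3 read 7.95, with the nearest at 8.44, and it is 1 of the 3 arrays that correlated least with the rest. Without the NeuT mouse the 12-week log2 difference of Angpt1 was 0.45 (limma adjusted p = 0.027), and without the BALB/c mouse the average over both ages was 0.31 (limma adjusted p = 0.0102).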

How the results depend on the processing

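For single members against each alternative or left-out array, 1162 values stayed on their side of the threshold, 12 gained and 20 lost the call, and 0 reversed while called. Among the 1162, differences near 0 that were not called could change sign, as that of Pdgfrb at 12 weeks did without NeuT 12-week replicate 4. No paired analysis was possible because the replicate numbers follow accession order and tie no mice together. Members called at 12 weeks (0) became 1, Angpt1, with the dim-gene filter, trended and robust moderation, array weights or only the groups compared, and ranged from 0 to 1 when 1 array was left out. At 24 weeks the 1 member called became 3 with array weights and 0 with only the groups compared, covariates, unequal variances or without 3 arrays (0 to 1 with 1 array left out). In the average the 2 became 3 with cyclic loess, 4 with array weights and 0 with covariates (2 to 3). Between ages in BALB/c mice the 1 became 0 with cyclic loess, only the groups compared or unequal variances (0 to 1). For the change with age, and between ages in NeuT mice, 0 members were called in every fit. Members with separate groups ranged from 1 to 2 at 12 weeks, stayed at 5 at 24 weeks (4 after quantile normalisation) and 3 between ages in BALB/c mice (2 after quantile normalisation), and ranged from 2 to 3 in NeuT mice, with 1 array left out. Genes called at 12 weeks (749) were 2088 with array weights, 4 with covariates, 9 with unequal variances and 230 (without BALB/c 12-week replicate 2) to 1363 (without NeuT 12-week replicate 5) with 1 array left out. At 24 weeks (274) they were 122 after quantile normalisation, 101 after cyclic loess, 577 with array weights, 1 with only the groups compared, 2 with covariates, 0 with unequal variances, 15 without 3 arrays, and 8 (without NeuT 24-week replicate 1) to 641 (without NeuT 24-week replicate 2). In the average (1670) they were 2 with covariates, 873 without 3 arrays, and 979 (without NeuT 24-week replicate 1) to 2152 (without NeuT 12-week replicate 5). For the change with age (2) they were 4 after quantile normalisation, 1 after median centring, 4 with trended and robust moderation, 10 with array weights, 6 with covariates, 0 without 3 arrays, and 1 to 3. Between ages in BALB/c mice (113) they were 214 after quantile normalisation, 220 with the dim-gene filter, 2375 with array weights, 183 with only the groups compared, 423 with covariates, 13 with unequal variances, 1277 without 3 arrays, and 0 (without BALB/c 24-week replicate 1) to 589 (without BALB/c 24-week replicate 3). In NeuT mice (7) they were 2 after quantile normalisation, 3 after cyclic loess, 1 after median centring, 13 with the dim-gene filter, 13 with trended and robust moderation, 72 with array weights, 0 with only the groups compared, 29 with covariates, 0 with unequal variances, 0 without 3 arrays, and 1 (without NeuT 12-week replicate 4) to 177 (without NeuT 24-week replicate 2). The share of called genes that were higher in NeuT mice was 82.1% at 12 weeks, 84.3% at 24 weeks and 75.6% in the average, against 69.1%, 68% and 59.6% after quantile normalisation and 68.6%, 72.3% and 63.7% after cyclic loess. Beyond the construction of each alternative the cause was not tested. Lepr and Foxc1 were left out by the dim-gene filter, and their signals under the negative control median limit what any setting can show.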

Other observations

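Lists of other marrow cells and of stress genes were read in the same fit. Of 9 osteoblast genes Alpl, the alkaline phosphatase gene, fell at 12 weeks by 0.41 on the log2 scale (SE 0.087, limma adjusted p = 0.0116) and 8 did not pass, against 3.84% of all genes called; the call held with any 1 array left out. At 24 weeks 0 of 9 passed by limma, and 2 had an unadjusted p under 0.05. The shares of all genes at an unadjusted p under 0.05 were 21% at 12 and 13.2% at 24 weeks. Of 8 adipocyte genes 0 passed by limma at either age (3 and 2 at an unadjusted p under 0.05), and the lipid droplet gene Plin4 fell by 0.22 in the average over both ages (SE 0.060, limma adjusted p = 0.0248), except without BALB/c 24-week replicate 3 or NeuT 24-week replicate 4. Of 6 erythroid genes 0 passed by limma at either age (2 and 1 at an unadjusted p under 0.05), with medians of -0.22 at 12 and -0.25 at 24 weeks. Of 6 megakaryocyte genes 0 passed as well (4 and 0 at an unadjusted p under 0.05), with medians of -0.25 and 0.11.

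Of 12 immediate-early genes 6 rose at 12 weeks, against 3.84% of all genes called; of these 3 still passed without BALB/c 12-week replicate 1 or 2 or NeuT 12-week replicate 4. At 24 weeks 0 of 12 passed by limma, and 4 had an unadjusted p under 0.05; the medians were 0.31 and 0.15. In the average over both ages all 12 differences were above 0, and 7 passed. Of 9 T- and NK-cell genes 1 rose at 12 weeks, and 1 rose and 3 fell at 24 weeks, against 1.4% of all genes called. Of 11 B-cell genes 0 passed by limma at 12 weeks (8 at an unadjusted p under 0.05) and 3 fell at 24 weeks, with medians of -0.57 and -0.87. Without the 3 arrays of lowest correlation 0 T- and NK-cell genes rose and 1 fell at 24 weeks, and 0 B-cell genes fell by limma. Of the 3 B-cell genes 0 still passed by limma without BALB/c 24-week replicate 1, 3 or 4 or NeuT 24-week replicate 1 or 4, although 9 of 11 had an unadjusted p under 0.05 with all arrays.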
